A study of Mus musculus with 42 samples.

Results

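The comparison described here set the huoxue formula against the yangyinyiqi formula in aorta, across all genes of the array. Its members were the 6 aorta arrays labelled huoxue (3 arrays) or yangyinyiqi (3 arrays), chosen by those labels alone out of 42 arrays in the series, 21 of them from aorta. SHENQI compound is a Chinese herbal prescription, and these formulas are the parts into which it was divided. The yangyinyiqi formula holds ginseng, Astragalus, rehmannia root, trichosanthes, hawthorn and yam, and the huoxue formula holds Salvia miltiorrhiza and rhubarb.

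All mice of both groups were adult male KK/Ay, an inbred strain with a yellow coat, from a dominant agouti mutation, that develops obesity and diabetes. All of them had a high-fat diet and drinking water with L-NAME, which blocks nitric oxide synthases, and this combination is the study's model of diabetic macroangiopathy. The formulas were then given by gavage every day for the same number of weeks, at different daily doses of raw drug, so formula and dose cannot be told apart. The macroangiopathy group, 3 arrays of the same model given saline, is quoted beside the values as a reference. Tissue of 3 mice was taken per group, and each array held 1 sample. P values (limma) therefore set each difference against the spread among the 3 samples of each group, moderated across genes.

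The aorta is a tube of smooth muscle and elastic sheets, lined by endothelium and wrapped in an outer coat that carries nerves, fat and small vessels. Whole aorta RNA therefore reports several cell types at once, together with blood left in the vessel, and in such bulk samples fewer cells of a type and less RNA per cell cannot be told apart. Levels are given as log2 intensity of the gene after background correction and quantile normalization, so a difference of 1 is a doubling, and levels of different genes are not comparable. The smooth muscle marker Myh11, the myosin heavy chain of contractile smooth muscle, was at 15.10, 14.93 and 15.43 in yangyinyiqi and at 12.65, 14.85 and 15.30 in huoxue. It was present on all 6 arrays and far lower in huoxue replicate 1 than on the others. Cdh5, the cadherin of endothelial junctions, lay between 8.07 and 9.24 on the 6 arrays. The nonagouti gene a, which that mutation switches on in many tissues, was between 9.02 and 9.35 on all 6 arrays, so neither group stood apart in it.

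Of 21184 genes with a symbol on the array, 15344 could be tested, those with a probe detected well above the background in every array of at least 1 group. No gene passed after Benjamini-Hochberg adjustment in the limma fit, where the smallest adjusted P was 0.99997. The study's methods use unadjusted P values with a threshold of 0.05, at which 87 genes passed (0.567%), of which 19 were higher (0.124%) and 68 lower (0.443%) in huoxue. A threshold of that size passes 5% of genes when nothing differs, so the number of calls was below that level. The 87 genes are therefore described below as the largest differences relative to their spread, not as established changes, and the words higher and lower refer to these 6 arrays.

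The differences were small for most genes. The median size of the log2 difference was 0.09, and the median half-width of its 95% interval was 0.46, so that for a typical gene a difference of about that size could not be detected. For 10.3% of the genes the interval reached more than 1 log2 unit to each side. In 479 genes (3.12%) the 3 huoxue arrays lay entirely above or entirely below the 3 yangyinyiqi arrays, 185 of them above (1.21%) and 294 below (1.92%), and 82 of the 87 called genes were among them. With 3 arrays against 3, an exact two-sided permutation test of a single gene cannot go below a P value of 0.1. That 0.1 is also the share of arrangements of the labels in which the groups do not overlap. The 3.12% of genes without overlap lay below it. The division into groups held 6.56% of the total sum of squares over the 6 arrays.

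The direction of the calls depended on the scaling. With the processed signal of the scanner software scaled to the 75th percentile, 56 genes were higher and 34 lower, a share of 62.2% higher against 21.8% in the quantile-normalized values. Centring each array on its median moved the median difference of all genes by 0.19 and left 0 genes higher and 1 lower, and relative to that shift 81 of the 87 genes kept their direction. Every one of the 6 arrays moved a count by over 1.5 times when it was left out. Without huoxue replicate 1 there were 32 higher and 178 lower, without huoxue replicate 2 there were 129 and 83, and without huoxue replicate 3 there were 75 and 186. Without yangyinyiqi replicate 1 the counts fell to 6 higher and 9 lower, without replicate 2 of that group they were 37 and 200, and without replicate 3 they were 20 and 24.

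**Figure D1:**
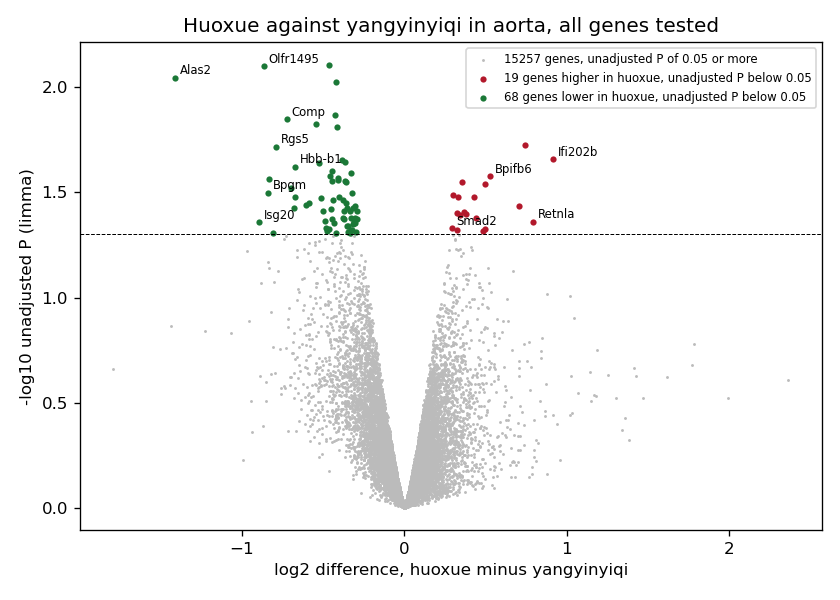
Log2 difference (huoxue minus yangyinyiqi, horizontal axis) against the unadjusted P value of the limma fit (as −log10, vertical axis) for each of the 15344 genes tested. The 68 green points to the left and 19 red points to the right lie above the dashed line at a P value of 0.05, and Alas2 combines the largest difference among them with one of the smallest P values.

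The gene with the largest called difference was Alas2, which encodes the erythroid form of 5-aminolevulinate synthase, the enzyme that starts haem synthesis in developing red cells. With it stood Hbb-b1, a beta globin of adult haemoglobin, and Bpgm, the mutase that makes 2,3-bisphosphoglycerate in red cells. Red cells of the blood have no nucleus and carry a residue of messenger RNA from their precursors, chiefly of globins, while their youngest form, the reticulocyte, still carries more kinds. Erythroid genes are classically controlled by GATA1, a factor that binds short motifs with GATA at their core. As Alas2, Hbb-b1 and Bpgm stood together in the comparison, the promoters of 3 red cell genes are shown. Hbb-b1 had no entry among the promoters used, and Hba-a1, an alpha globin gene, is shown beside Alas2 and Bpgm. Each window runs from 250 bases before to 50 after the start of the gene (RefSeq, build GRCm38.p6). GATAA on either strand (TTATC when read on the strand printed) is in capitals.

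Alas2 promoter, chrX:150547167-150547466, plus strand: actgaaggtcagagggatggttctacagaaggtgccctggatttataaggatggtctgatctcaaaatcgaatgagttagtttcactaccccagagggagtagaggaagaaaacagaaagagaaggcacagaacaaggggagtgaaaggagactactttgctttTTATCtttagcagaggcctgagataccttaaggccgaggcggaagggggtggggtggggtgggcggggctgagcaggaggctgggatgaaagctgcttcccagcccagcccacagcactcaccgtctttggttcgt
Hba-a1 promoter, chr11:32283422-32283721, plus strand: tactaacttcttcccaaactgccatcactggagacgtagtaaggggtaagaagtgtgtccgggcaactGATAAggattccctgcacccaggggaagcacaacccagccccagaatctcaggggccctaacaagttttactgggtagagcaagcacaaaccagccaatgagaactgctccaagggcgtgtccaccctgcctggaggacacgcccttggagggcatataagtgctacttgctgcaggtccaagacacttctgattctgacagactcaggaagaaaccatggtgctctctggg
Bpgm promoter, chr6:34476106-34476405, plus strand: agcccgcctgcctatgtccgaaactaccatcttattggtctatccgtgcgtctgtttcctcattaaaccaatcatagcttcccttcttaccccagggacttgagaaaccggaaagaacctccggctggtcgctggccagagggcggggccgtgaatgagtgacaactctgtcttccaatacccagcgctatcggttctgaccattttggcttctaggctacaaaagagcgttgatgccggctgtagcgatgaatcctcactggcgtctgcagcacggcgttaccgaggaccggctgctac

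The window of Alas2 holds the letters once, 86 bases before the start site, and that of Hba-a1 holds them once, 182 bases before it. The window of Bpgm does not hold them. Of the list of red cell genes described below, 6 have a window in the table and 5 of these hold the letters, Hba-a1 among them, which was not a called gene. Among all 32851 windows of the table, 25.4% hold GATAA on at least 1 strand, so a match alone is common, and it is given as a description of the letters only.

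Alas2 was at 14.62, 13.23 and 13.89 in yangyinyiqi and at 12.75, 12.10 and 12.66 in huoxue. The lowest yangyinyiqi array lay above the highest huoxue array, while the macroangiopathy arrays, at 13.90, 13.87 and 14.11, lay with yangyinyiqi. The difference was −1.41 on the log2 scale (SE 0.38, unadjusted P = 0.0090, limma), which is a level 2.66 times as high in yangyinyiqi as in huoxue, with a 95% interval from −2.33 to −0.50. It kept an unadjusted P value below 0.05 with each of the 6 arrays left out in turn, when it ranged from −1.75 to −1.06. Among all the other settings tried, Alas2 kept that threshold in 26 and lost it in 2. Its difference there was as small as −0.69, and its unadjusted P in limma reached 0.48. Alas2 was picked on these same 6 arrays, so these fits are not an independent check. On the slide that held 2 arrays of each group the difference was −1.13.

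Hbb-b1, the mean of 4 probes, was at 17.61, 17.17 and 17.45 in yangyinyiqi and at 16.87, 16.31 and 17.02 in huoxue. The groups did not overlap, and the macroangiopathy arrays, from 17.45 to 17.59, again lay with yangyinyiqi. The difference of −0.67 had an SE of 0.23 and an unadjusted P of 0.024, and P was 0.081 without yangyinyiqi replicate 1 and 0.065 without its replicate 3. Mouse beta globin genes are near-identical copies, and the copies cannot be told apart here. The brightest of the 4 probes is assigned in current RefSeq to another symbol of the locus, Hbb-bt. Bpgm was at 10.67, 9.48 and 9.98 in yangyinyiqi and at 9.33, 9.04 and 9.24 in huoxue, without overlap, and the macroangiopathy arrays ran from 9.75 to 9.90. Its difference of −0.84 (SE 0.31, unadjusted P = 0.032) stayed below 0.05 in 2 of the 6 sets with an array left out, those without huoxue replicate 1 and without yangyinyiqi replicate 2, and otherwise P ranged up to 0.085.

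The list of red cell genes had 13 tested members, of which these 3 were called lower, 0 were called higher and 12 had a negative difference. Over all genes tested 0.443% were called lower, and 7501 of 15344 had a positive difference. The median difference of the list was −0.41 against −0.0034 over all genes. The number of members called lower was 7, 2 and 2 without huoxue replicates 1, 2 and 3 in turn, and 1, 4 and 1 without yangyinyiqi replicates 1, 2 and 3, and over all genes the share called lower ran from 0.0586% to 1.3% in those 6 fits. Hba-a1 and Hba-a2, near-identical alpha globin genes whose probes can share RNA, differed by −0.62 and −0.59 with unadjusted P values of 0.059 and 0.055, and neither overlapped between the groups. Slc4a1, the anion exchanger of the red cell membrane, differed by −0.84 (unadjusted P = 0.068). At the other end Klf1, a transcription factor of erythroid precursors, was at −0.02 and the embryonic globin Hbb-bh1 at 0.11. Across the list the summed level was 19.38, 18.79 and 18.97 on the yangyinyiqi arrays, 18.66, 17.98 and 18.58 on the huoxue arrays, and between 18.96 and 19.16 on the macroangiopathy arrays. All 3 huoxue sums thus lay below all 6 others, but such a sum is set by the brightest genes, here the globins. The median deviation of the list, which weights its genes equally, overlapped between the groups, with 0.60, −0.03 and 0.18 in yangyinyiqi, 0.0057, −0.72 and −0.21 in huoxue, and −0.0033 to 0.18 in macroangiopathy. In 5 of the 13 members the groups did not overlap, all 5 lower in huoxue, beside 1.92% of all genes. How much blood each sample held was not recorded in the sources used here, and its part in these values was not tested.

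One more enzyme of haem synthesis was called, although the naming rule did not select it, and it was picked after its value was seen. Ppox, protoporphyrinogen oxidase, was at 9.64, 9.67 and 9.37 in yangyinyiqi and at 9.18, 9.25 and 8.88 in huoxue, a difference of −0.46 (unadjusted P = 0.027). Of the other enzymes of the pathway, Alad, Uros, Urod, Cpox and Fech had differences from −0.11 to 0.20 and none was called. Among the leading genes Fam46c, now named Tent5c and encoding a poly(A) polymerase, was at 13.24, 12.47 and 12.62 in yangyinyiqi and at 11.52, 12.36 and 11.96 in huoxue, a difference of −0.83 (unadjusted P = 0.027). Isg20, an interferon-stimulated exonuclease, was at 9.69, 8.48 and 8.63 against 8.40, 7.85 and 7.86, a difference of −0.90 (unadjusted P = 0.044). Both were free of overlap by a narrow margin, and in both yangyinyiqi replicate 1 was the highest array.

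**Figure D2:**
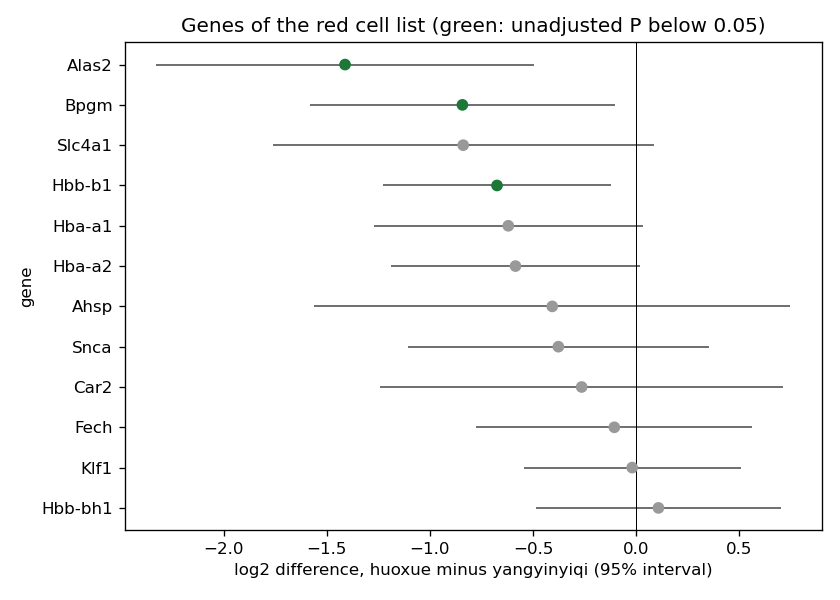
Log2 difference, huoxue minus yangyinyiqi, for 12 genes of the red cell list, with 95% intervals from the limma fit on 6 arrays. Points in green passed an unadjusted P value of 0.05, and 11 of 12 points lie to the left of 0.

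The lists of elastic fibre genes (20 tested) and of matrix proteases and inhibitors (21 tested) had 0 members called, and the matrix genes described next were named one by one. Rgs5, a regulator of G protein signalling that marks pericytes and arterial smooth muscle, was at 12.61, 12.36 and 12.14 in yangyinyiqi and at 11.22, 11.44 and 12.06 in huoxue. The groups met almost without a gap, and the difference was −0.79 (SE 0.25, unadjusted P = 0.019). Comp, the cartilage oligomeric matrix protein, was at 11.16, 10.73 and 10.91 against 10.52, 9.84 and 10.26, a difference of −0.73 (SE 0.21, unadjusted P = 0.014), and P rose to 0.052 without yangyinyiqi replicate 1. Ddr2, a receptor tyrosine kinase that binds fibrillar collagen, differed by −0.68 (unadjusted P = 0.037).

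Hspg2, which encodes perlecan, the heparan sulfate proteoglycan of basement membranes, was at 13.87, 13.39 and 14.10 in yangyinyiqi and at 12.97, 13.29 and 13.34 in huoxue. The difference of −0.59 had an unadjusted P of 0.036 and a gap of less than 0.1 between the nearest arrays. Col4a1, a chain of basement membrane collagen, differed by −0.44 (unadjusted P = 0.034), and its partner chain Col4a2 by −0.55 (unadjusted P = 0.054). In the list of collagens, Col4a1 was the 1 member called of 22 tested, and 3 of the 22 had a positive difference. Over all genes 0.443% were called lower and 7501 of 15344 had a positive difference, and a single call says nothing about the list. The list's median was −0.17, and with median centring, which moved the median of all genes by 0.19, it was 0.017. Without yangyinyiqi replicate 2, 4 collagens were called lower, beside 1.3% of all genes in that fit, and without huoxue replicate 1, without huoxue replicate 2, or without yangyinyiqi replicate 1 or 3, 0 were.

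Among the other leading genes in this direction was Dctn1, a subunit of the dynein activator dynactin, at −0.70 (unadjusted P = 0.030). Alas2 and Olfr1495 were the only ones of the 23 leading genes plotted by array to keep an unadjusted P below 0.05 with each array left out in turn. Among all the other settings tried, Alas2 lost that threshold in 2 and Olfr1495 in 4, with unadjusted P in limma up to 0.48 and 0.22. Olfr1495, an olfactory receptor gene, had 7.71, 7.59 and 7.13 in yangyinyiqi and 6.58, 6.92 and 6.33 in huoxue, a difference of −0.87 (unadjusted P = 0.0080). The 3 macroangiopathy arrays spanned both groups for this gene, with 7.76, 6.37 and 6.27. Nr1h2, the liver X receptor beta that senses oxysterols, was at 11.04, 10.82 and 11.10 against 10.59, 10.63 and 10.60, a difference of −0.38 (unadjusted P = 0.022). It was the 1 call among 16 tested genes of cholesterol efflux and liver X receptors, and 0.443% of all genes were called lower. Cdkn1a, the cell cycle inhibitor p21, differed by −0.67 (unadjusted P = 0.033) although huoxue replicate 1, at 8.43, lay above yangyinyiqi replicate 1, at 8.33. Stip1, the cochaperone that joins Hsp70 and Hsp90, differed by −0.32 (unadjusted P = 0.045) as the 1 call among 28 heat shock genes, where Hspb1 at −0.51 (unadjusted P = 0.077) and Hsp90ab1 at −0.36 came next.

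**Figure D3:**
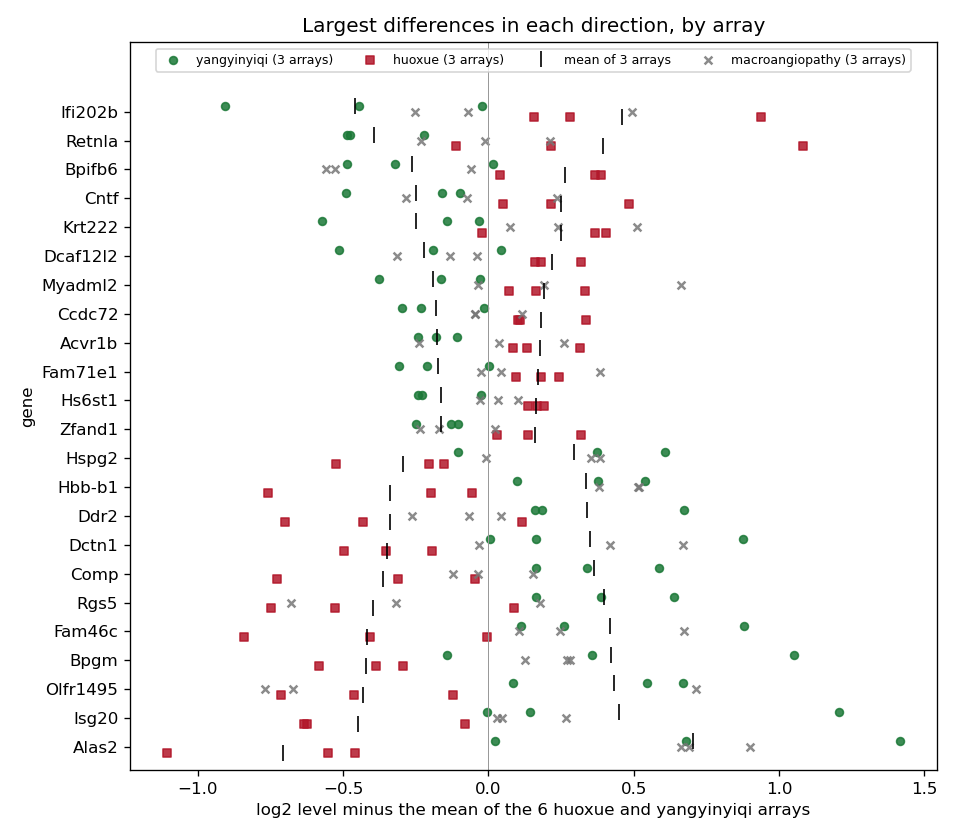
Log2 level of each array minus the mean of the 6 huoxue and yangyinyiqi arrays, for 23 of the largest differences under the naming rule, 12 higher and 11 lower in huoxue; green circles are yangyinyiqi, red squares huoxue, grey crosses macroangiopathy, and black strokes the means of 3 arrays. Green and red points do not overlap in any of the 23 genes, which the rule required, while the grey crosses fall on either side.

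In the other direction, the largest difference among the called genes named here was that of Ifi202b, an interferon-inducible gene whose product binds DNA. It was at 8.01, 7.55 and 8.44 in yangyinyiqi and at 9.39, 8.61 and 8.74 in huoxue. The groups did not overlap, the macroangiopathy arrays reached 8.95, and the difference was 0.92 (SE 0.30, unadjusted P = 0.022), a level 1.89 times as high. P was 0.055 without huoxue replicate 1, 0.055 without yangyinyiqi replicate 1 and 0.065 without yangyinyiqi replicate 2. Retnla, a secreted resistin-like protein of alternatively activated macrophages and fat, was at 11.40, 11.41 and 11.67 in yangyinyiqi and at 12.97, 11.78 and 12.10 in huoxue. Its difference of 0.79 (SE 0.31, unadjusted P = 0.044) was 0.45 without huoxue replicate 1, the highest array.

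Acvr1b, a type I receptor for activin, was at 7.16, 7.23 and 7.30 in yangyinyiqi and at 7.72, 7.49 and 7.54 in huoxue, a difference of 0.35 (unadjusted P = 0.028). Smad2, which carries the signal of that receptor and of the TGF-beta receptor to the nucleus, was at 8.30, 8.27 and 8.29 against 8.70, 8.53 and 8.50, a difference of 0.29 (unadjusted P = 0.047). It was the 1 call among 27 tested genes of TGF-beta and BMP signalling, beside 0.124% of all genes called higher. Of the 27, 7 had a positive difference, beside 7501 of all 15344 genes. It lost the threshold in each of the 6 sets with an array left out, where P ran from 0.061 to 0.11. Hs6st1, a sulfotransferase of heparan sulfate, was at 10.61, 10.81 and 10.59 in yangyinyiqi and within the narrow span of 10.97 to 11.03 in huoxue, a difference of 0.33 (unadjusted P = 0.033). Cntf, the ciliary neurotrophic factor made by Schwann cells, differed by 0.50 (unadjusted P = 0.029). Bpifb6, a member of a family of lipid-binding proteins, differed by 0.53 (unadjusted P = 0.026). The remaining genes named by the rule in this direction, Krt222, Dcaf12l2, Myadml2, Ccdc72, Fam71e1 and Zfand1, differed by 0.32 to 0.50 with P values from 0.039 to 0.048.

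A few dim genes were well above background on all 3 arrays of 1 group and on none of the other. Of the 15344 genes tested there were 19 such genes for yangyinyiqi and 1 for huoxue. Probes with a symbol well above background made up 74.54%, 76.65% and 73.27% on the yangyinyiqi arrays. On the huoxue arrays they made up 72.68%, 71.83% and 73.75%, and the part of this in the counts was not tested. In the genes named here no array of the dim group fell below the dimmest detected probe. That floor is the lowest of all detected probes, so it cannot show that a dim level was measured. Each fold is the ratio of the means, and on no array of the dim group was the gene well above background. Not all of the 19 had a fold above 1 when dim values were raised at least to the dimmest detected probe. Among those that did, the largest were 4930522H14Rik, 1.75-fold higher in yangyinyiqi, C030039L03Rik, 1.38-fold, and Acrv1, 1.35-fold. The smallest was 9430076C15Rik, at 1.009-fold. Unadjusted P values in the limma fit were 0.049 for 4930522H14Rik, 0.0078 for C030039L03Rik and 0.063 for Acrv1. That of C030039L03Rik, not well above background on any huoxue array, was the smallest of all genes tested. Adjusted P values were 0.99997, as they were for all genes of this kind. The single gene of huoxue was 5033421B08Rik, 1.23-fold higher.

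Of 49 lists of genes by function or cell type, 42 had 0 members called at an unadjusted P below 0.05 in the limma fit, and 7 had 1 or more. Beside the lists already given, the glucocorticoid list held Cdkn1a as its 1 call among 17 tested genes and the fibroblast list held Comp as its 1 call among 20. Over all genes 0.567% were called in either direction and most lists are short, so neither 0 calls nor a single call is read as a result about a list. Lists on the tone of the vessel held none. None of 24 contractile genes of smooth muscle was called, although their median was −0.58. Huoxue replicate 1 stood alone among the 6 arrays, and without it the median was 0.0075. Without huoxue replicate 2, 2 contractile genes were called higher, beside 0.841% of all genes in that fit, and without huoxue replicate 3, 2 were called lower, beside 1.21%. None of 20 endothelial genes was called, with a median of −0.15 and 1 positive difference, beside 7501 of all 15344 genes. Tie1, an endothelial receptor, came nearest with −0.72 (unadjusted P = 0.13). The 15 genes of nitric oxide and endothelin had a median of −0.13. Nos3, the endothelial nitric oxide synthase that L-NAME blocks, was at 10.03, 8.83 and 9.23 in yangyinyiqi and at 9.47, 8.29 and 8.98 in huoxue. Its groups overlapped and its difference was −0.45, with a 95% interval from −1.43 to 0.54. For the renin-angiotensin genes, 11 tested, the median was 0.02.

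The lists given next, on haemostasis, drug handling and metabolism, had 0 calls. The 22 genes of coagulation and fibrinolysis had a median of −0.01 and the 22 of platelets and prostanoids −0.19. Among 21 genes of xenobiotic receptors and drug metabolism the median was −0.05, and Cyp1a1, which the aryl hydrocarbon receptor induces, was high on yangyinyiqi replicate 2 alone, at 8.55 against 5.63 to 6.55 on the other 5 arrays. In the list of 20 glutathione S-transferases the median was −0.01, with Gstm1 at −0.55 (unadjusted P = 0.085), and in the 24 antioxidant genes it was 0.01. The 30 genes of insulin signalling and glucose transport had a median of −0.07, the 27 of glycolysis and glycogen 0.02, the 24 of fatty acid oxidation −0.07 and the 21 of cholesterol synthesis 0.05. In the proteasome 0 of 31 subunits were called, and Psma6 was nearest at 0.27 (unadjusted P = 0.059).

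Per1, Dbp and Smad7 are regulators that the study discussed by name, and Per1 and Dbp belong to the list of clock outputs and repressors, where 0 of 15 genes were called. Per1, a repressor of the clock, was at 10.001, 9.27 and 9.81 in yangyinyiqi and at 9.28, 9.14 and 9.36 in huoxue, and at 9.41, 9.27 and 8.85 in macroangiopathy. The groups overlapped, and the difference was −0.43 with a 95% interval from −0.95 to 0.08 (unadjusted P = 0.086, limma), though P was below 0.05 in 4 of the 28 other settings tried. Dbp, a transcription factor under clock control, was at 14.95, 14.36 and 14.82 against 13.95, 14.58 and 15.09, a difference of −0.17 (unadjusted P = 0.61). Smad7, an inhibitor of TGF-beta signalling, was at 9.02, 8.61 and 8.88 against 8.30, 8.84 and 9.39, a difference of 0.0076 with an interval from −0.70 to 0.71. For Smad7 and Dbp the spread among the 3 huoxue arrays was wider than any difference between the groups, and Dbp was 0.12 without huoxue replicate 1.

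The arrays of 1 group differed from each other far more than the groups did. The first principal component of the 6 arrays held 48.8% of the variance and the second 29.9%, and both put arrays of the same group apart. On the first, yangyinyiqi replicate 2 and huoxue replicate 2 stood together, opposite the other 4 arrays. The genes that set them apart were those of lymphoid tissue, led by Glycam1, an adhesion molecule of the vessels of lymph nodes, with Ltb and the B cell gene Cd79b. Cd79b was at 9.49, 14.17 and 9.11 in yangyinyiqi and at 10.80, 14.50 and 7.71 in huoxue. The B cell list deviated from the mean of the 6 arrays by a median of 2.22 on yangyinyiqi replicate 2 and by 2.69 on huoxue replicate 2, and by −2.09 to −0.26 on the other 4. One such array fell in each group, and 0 of 16 B cell genes and 0 of 18 T cell genes were called, with medians of 0.16 and 0.04 for the difference.

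Other tissue lists moved on other arrays. Fat and energy genes were highest on huoxue replicate 1 and lowest on huoxue replicate 2, with a median deviation of 0.86 and −0.93 for brown adipocyte genes, and Ucp1, the uncoupling protein of brown fat, was bright on all 6 arrays, from 15.70 to 17.51. Skeletal muscle genes followed the same pair of arrays, at 1.49 and −1.85, and Mylpf, a fast muscle myosin light chain, ran from 6.72 on huoxue replicate 2 to 13.62 on huoxue replicate 1. On huoxue replicate 1 the contractile smooth muscle list was at −1.24, and Lor, a skin barrier protein, was at 13.20 there against 5.94 to 6.47 on the other 5 arrays. Huoxue replicate 3 was highest for heart genes, at 1.35, where Myl7, an atrial myosin light chain, reached 13.82. It was also highest for the list of Schwann cells and nerve, at 1.15, against −1.16 on both yangyinyiqi replicate 3 and huoxue replicate 1. Th, the enzyme that starts noradrenaline synthesis in sympathetic nerves, was at 11.17, 11.44 and 7.28 in yangyinyiqi and at 7.92, 10.06 and 12.54 in huoxue. None of the lists of this paragraph had a member called on the 6 arrays, but this depended on the arrays included. Without huoxue replicate 2, 13 of 25 skeletal muscle genes were called higher, beside 0.841% of all genes, and without replicate 2 of both groups 15 were, beside 0.704%. Without huoxue replicate 1, 8 of 25 white adipocyte genes were called lower, beside 1.16%. The part of tissue content in the called genes was not tested.

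**Figure D4:**
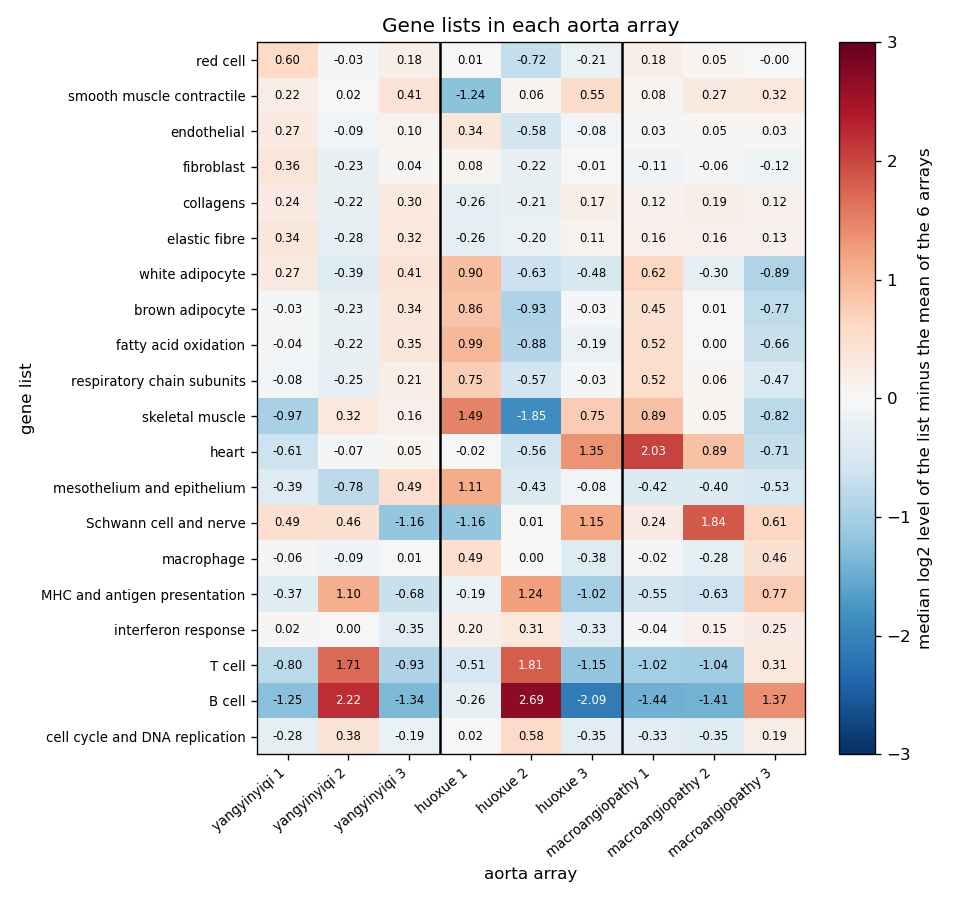
Median log2 level of 20 gene lists on 9 aorta arrays, each as the deviation from the mean of the 6 huoxue and yangyinyiqi arrays; red is higher, blue lower, and black lines part the groups. The B and T cell rows are highest on replicate 2 of both groups, and the smooth muscle row is lowest on huoxue replicate 1.

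For each of the 49 lists the mean deviation was compared with the range among 3 arrays of a group. The difference between the group means never exceeded the larger of the 2 ranges, which ran from 0.11 to 4.78. The red cell list came nearest in proportion, with a difference of −0.56 between the means against ranges of 0.64 within yangyinyiqi and 0.73 within huoxue. Next in size came the heart list at 0.47, against a range of 1.92 within huoxue, then the mesothelium list at 0.43, against 1.54, and the smooth muscle list at −0.43, against 1.79.

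**Figure D5:**
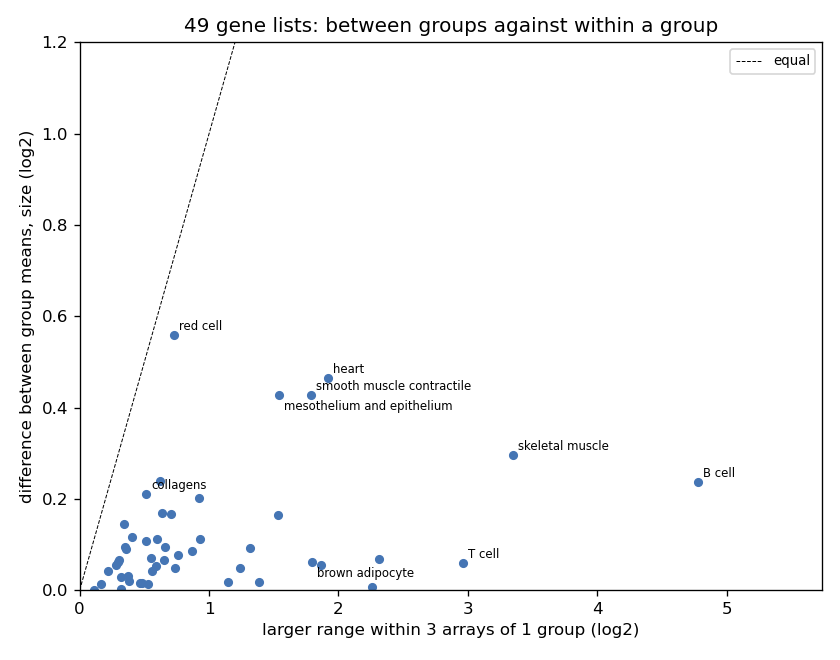
Size of the difference between the group means of each of the 49 gene lists (vertical axis, log2) against the larger of its ranges among the 3 arrays of a group (horizontal axis, log2). All points lie below the dashed line of equal values, with the red cell list nearest to it in proportion to its range.

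Against the shared macroangiopathy arrays the formulas had counts of a like order. Huoxue differed from macroangiopathy in 322 of 15468 genes at an unadjusted P below 0.05 (2.08%), 179 higher (1.16%) and 143 lower (0.924%), and yangyinyiqi in 219 of 15589 (1.4%), 144 higher (0.924%) and 75 lower (0.481%). After adjustment 0 genes passed in either comparison in limma. Because the comparisons share their control arrays, values are set side by side only for the leading genes. Alas2 was at −1.46 in huoxue and at −0.05 in yangyinyiqi, each relative to macroangiopathy, and Hbb-b1 was at −0.81 and −0.13. Bpgm was at −0.65 and 0.20 and Fam46c at −0.76 and 0.08. For Rgs5, by contrast, huoxue was at −0.12 and yangyinyiqi at 0.67, and for Comp the values were −0.36 and 0.36. Ifi202b was at 0.40 in huoxue and −0.52 in yangyinyiqi.

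On the 6 arrays between 71.8% and 76.7% of the probes with a symbol were well above background, and all 6 arrays were scanned on the same day. They lay on 3 slides. Yangyinyiqi replicate 1 was on a slide with the macroangiopathy arrays, huoxue replicate 3 on a slide with another treatment, and the other 4 shared a slide. With slide as a fixed block, which leaves the comparison to the 2 against 2 arrays of the shared slide, 17 genes were higher and 34 lower, and 5 of them were among the 87.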

How the data were processed

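Total RNA of mouse tissue was hybridized to 42 single-colour Agilent arrays, and the authors deposited the scanner output of each (Feature Extraction 10.7.3.1) with the intensity of 45018 spots, not yet normalized, and a table of processed log2 values. Groups were taken from the sample labels. The median intensity was corrected with normexp (offset 0), then brought to a common distribution by quantile normalization of all 42 arrays and expressed as log2, with limma 3.58.1 and data.table at version 1.17.8 in R 4.3.3. Control spots were dropped, irregular spots were masked, and spots and probes of a symbol were averaged, so 34889 of 41174 probes gave 21184 genes. Of these, 15357 had a probe detected in every array of at least 1 group, and 15344 could be fitted. The precision is limited by the number of arrays. Groups were compared with lmFit and eBayes on 6 arrays with group as the only term, with a threshold of 0.05 on unadjusted P values and on Benjamini-Hochberg adjusted ones, and the fit was tested on simulated data. The genes named were the 12 largest differences in each direction among those with an unadjusted P below 0.05, detected on all 6 arrays, without overlap and with the same direction on the shared slide, those with the smallest P in each list, and Per1, Smad7 and Dbp. The comparison and the gene lists were chosen with earlier results of these data known. Columns with annotation of the arrays' mouse probes were used for symbols, and current symbols and promoters came from RefSeq tables. Alternatives were other background corrections, scalings, filters, sets of arrays, slide and replicate blocks, the authors' value table, other eBayes options, and each array left out. Figures were drawn in Python 3.11.15 with pandas 2.3.3, numpy 2.4.6 and matplotlib 3.10.9. Results for 3 genes are not reported here.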

Additional observations from a re-analysis of the deposited data

How the results depend on the processing

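After Benjamini-Hochberg adjustment 0 genes passed in limma in each of the 28 other settings, where the unadjusted counts were never 0 in both directions, and at an adjusted threshold of 0.10 the count was also 0. Against 19 higher and 68 lower at an unadjusted P below 0.05, the counts that moved by over 1.5 times were 30 higher with an offset of 50, 56 higher and 34 lower with the processed signal, 0 higher and 1 lower with median centring, 67 higher and 114 lower without a filter, 9 higher with the brightest probe, 41 higher and 149 lower with the macroangiopathy arrays in the fit, 9 higher and 37 lower in the fit of 21 aorta arrays, 31 higher in that of 42 arrays, and 34 or 33 lower with slide as a fixed block in 6 or 21 arrays. At a threshold of 0.01 the 87 genes became 4. Leaving out 1 array gave between 6 and 129 higher and between 9 and 200 lower. The labels do not say that replicate numbers pair the samples. Deviations from the group means correlated at −0.05, 0.67 and 0.08 for numbers 1, 2 and 3, which cannot decide it. The fit with replicate number as a block had 47 higher and 112 lower. Chosen after seeing the data were the removal of replicate 2 of both groups (108 higher, 110 lower), the mean of the B and T cell lists as a covariate (56 and 131) and array weights (33 and 159). Median centring shifted the median of all genes by 0.19, and relative to that shift 81 of the 87 genes kept their direction. Unshifted it turned Ppox (0.029), Hspg2 (0.027), Col4a1 (0.17), Nr1h2 (0.19), Hspb1 (0.13), Hsp90ab1 (0.24), Per1 (0.076), Dbp (0.49), Nos3 (0.13) and Gstm1 (0.10) positive. Smad7 turned to −0.18 with slide as a fixed block in 6 or 21 arrays, −0.27 without huoxue replicate 3, −0.10 without yangyinyiqi replicate 2 and −0.11 without replicate 2 of both groups, and with 1 array left out it ranged from −0.27 to 0.28. Dbp turned to 0.12 without huoxue replicate 1, in a range from −0.45 to 0.12. The red cell list kept a negative median in all 28 settings, from −0.73 to −0.22, with 0 to 7 members called. The cause was not tested for any of these values.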
